A study of Mus musculus with 8 samples.

Results

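The YAP, TAZ and TEAD genes described here are 10 genes of the Hippo pathway, chosen by gene symbol. They are Yap1 and Wwtr1, which encode the co-activators YAP and TAZ, and Tead1, Tead2, Tead3 and Tead4, which encode the DNA-binding partners of both. The other members are Ankrd1 and Amotl2, which are widely used as readouts of YAP and TAZ activity, Lats2, which encodes a kinase that inhibits both co-activators, and Vgll3, which encodes a cofactor that competes for TEAD. All 10 were among the 20681 genes of the table, and all 10 passed the filter for testing, which asked 4 of the 8 libraries to reach a value of 10, as did 14949 genes in all.

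In the Hippo pathway, a cascade of MST and LATS kinases phosphorylates YAP and TAZ and keeps them out of the nucleus. When the cascade is inactive, YAP and TAZ enter the nucleus, bind TEAD proteins and activate genes of growth, adhesion and matrix. The pathway responds to matrix stiffness and mechanical load, and it is studied in cartilage, tendon and muscle, where TEAD proteins also bind the MCAT elements of contractile genes. Because YAP and TAZ are controlled mainly at the protein level, transcript counts give the supply of each factor and the level of its targets, not its activity.

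The RNA came from mouse knee joints, with 4 libraries labelled control and 4 labelled knockout, selected as poly-A RNA. Per the labels all the joints were from Acan-Cre;Loxl2 fl/fl mice, in which loxP sites flank part of Loxl2 and the cartilage gene Acan drives Cre, so that the deletion is directed at cells that express Acan and not at the muscle, marrow or vessels of a whole joint. Library names in the control group combine Vehicle, DMM and LOXL2wt, and those of the other group combine KO, DMM and LOXL2ko. DMM is not spelled out there, and is the usual abbreviation of a surgery that destabilises the medial meniscus. The agent that took the place of vehicle, the age and sex of the animals, and whether each library is 1 animal are not stated in the labels, so p-values measure the spread between these libraries. Loxl2 itself had 282, 349, 1135 and 311 normalised reads in the 4 control libraries, and 893, 1468, 960 and 1518 in the 4 labelled knockout, listed by replicate number as everywhere below. This is opposite to the direction that the labels imply, with a log2 difference of 1.44 (SE 0.40, limma adjusted p = 0.0294, lost with edgeR at an adjusted p of 0.0669). Neither DESeq2 nor a limma fit with the replicate number as a block called Loxl2. Whether the counted reads lie inside the deleted part was not tested. Control replicate 3 lay within the range of the libraries labelled knockout, and without it the difference was 1.91 (limma adjusted p = 0.00188). Removing any other control library, or knockout replicate 2 or 4, ended the call (limma adjusted p from 0.0666 to 0.0849). The groups are therefore named by their labels.

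Depth was similar across libraries, from 13991000 to 17411617 reads assigned to genes. The joints differed in the marker genes of their tissues, and these values stand beside the results below. The summed value of 18 skeletal muscle markers was 2600150 to 2827750 in the control libraries and 1255530 to 1779290 in the libraries labelled knockout. The sum of 12 fibroblast markers was 40655 to 121862 against 169123 to 273937, that of 8 macrophage markers 2817 to 6668 against 9880 to 14084, and that of 9 chondrocyte markers 3085 to 7897 against 8177 to 12424. Endothelial markers (5604 to 7258 against 4586 to 9157) and smooth muscle and pericyte markers (5725 to 7963 against 5641 to 8911) overlapped between the groups. Called as higher by limma were 9 of 12 fibroblast, 8 of 8 macrophage and 1 of 9 chondrocyte markers, and as lower 9 of 18 muscle markers. Of all tested genes 11.6% were called higher and 11.6% lower, so the chondrocyte count is near the share among all genes. None of the 9 endothelial or 6 smooth muscle and pericyte markers was called by limma, and 0 of them had an unadjusted p under 0.05. Of all these markers Matn3, a cartilage matrix gene, was the single one at 0 in any library. In bulk tissue, fewer cells of a type and less RNA per cell cannot be told apart.

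The proximal promoters are shown first, because TEAD proteins bind a short motif, GGAATG or its reverse complement CATTCC, and several of these genes are known as targets of the factors that the others encode. RefSeq windows on GRCm38.p6, from 250 bases before to 50 bases after an annotated start, were matched for 8 of the 10 genes, Tead1 and Tead4 being the others, and gave 12 windows. The motif was searched on both strands. It stood in 9 of the 12 windows, or 75%, whereas 14.66% of the 32851 windows of all genes held it. Counted by gene it stood in 7 of the 8, for which no share over all genes was computed. A gene with several windows has more chances of a match. The 2 Wwtr1 windows overlap and share 1 site, and the Tead3 window with 3 matches overlaps both other Tead3 windows at its ends. A match is a description of the letters and was not tested for binding. Printed below, 5′ to 3′ on the strand of the gene with the motif in capitals, are the windows of both co-activators, of the readout genes Ankrd1 and Amotl2, of the Tead3 start with the most matches, and of Tead2, the one gene with no match.
Yap1 (chr9:8004547-8004846, minus strand): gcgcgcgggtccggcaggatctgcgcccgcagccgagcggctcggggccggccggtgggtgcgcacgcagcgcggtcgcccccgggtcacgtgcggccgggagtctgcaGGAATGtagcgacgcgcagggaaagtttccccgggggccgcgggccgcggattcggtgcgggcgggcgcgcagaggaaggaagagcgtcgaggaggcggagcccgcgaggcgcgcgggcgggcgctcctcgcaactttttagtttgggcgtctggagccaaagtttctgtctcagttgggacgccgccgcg
Wwtr1 (chr3:57575861-57576160, minus strand): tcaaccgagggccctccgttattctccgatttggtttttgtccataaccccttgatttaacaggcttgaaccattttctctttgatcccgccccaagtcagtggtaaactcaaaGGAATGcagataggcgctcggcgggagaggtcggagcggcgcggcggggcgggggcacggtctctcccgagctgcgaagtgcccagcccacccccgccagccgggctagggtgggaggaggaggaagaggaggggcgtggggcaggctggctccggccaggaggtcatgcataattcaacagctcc
Tead3 (chr17:28350551-28350850, minus strand): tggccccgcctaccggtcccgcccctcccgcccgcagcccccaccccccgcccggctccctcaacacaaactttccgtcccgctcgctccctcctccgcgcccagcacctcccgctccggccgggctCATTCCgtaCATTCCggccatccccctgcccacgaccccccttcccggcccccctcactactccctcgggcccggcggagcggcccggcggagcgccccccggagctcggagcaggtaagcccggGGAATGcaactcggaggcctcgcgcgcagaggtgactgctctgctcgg
Ankrd1 (chr19:36119795-36120094, minus strand): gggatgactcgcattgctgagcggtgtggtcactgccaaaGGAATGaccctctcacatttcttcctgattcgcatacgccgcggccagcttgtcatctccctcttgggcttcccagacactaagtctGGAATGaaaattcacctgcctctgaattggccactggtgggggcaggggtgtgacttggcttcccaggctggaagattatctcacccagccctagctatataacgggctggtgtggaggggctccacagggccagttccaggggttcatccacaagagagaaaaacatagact
Amotl2 (chr9:102717554-102717853, plus strand): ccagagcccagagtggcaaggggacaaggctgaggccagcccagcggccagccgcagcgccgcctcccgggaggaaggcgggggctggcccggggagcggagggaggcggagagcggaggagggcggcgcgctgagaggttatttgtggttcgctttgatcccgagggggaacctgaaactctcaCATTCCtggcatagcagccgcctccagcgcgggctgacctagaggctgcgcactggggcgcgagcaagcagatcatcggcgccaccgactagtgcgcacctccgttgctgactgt
Tead2 (chr7:45215542-45215841, plus strand): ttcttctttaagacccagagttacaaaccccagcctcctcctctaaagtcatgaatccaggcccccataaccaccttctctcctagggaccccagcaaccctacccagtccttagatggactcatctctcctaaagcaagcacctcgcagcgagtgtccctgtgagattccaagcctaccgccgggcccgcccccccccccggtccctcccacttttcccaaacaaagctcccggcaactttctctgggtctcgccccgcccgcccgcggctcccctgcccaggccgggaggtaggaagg

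The match began 141 bases before the Yap1 start, 136 bases before the upstream Wwtr1 start, and 65 bases before the Amotl2 start. Ankrd1 held 2 matches, 210 and 123 bases before its start, and the printed Tead3 window held 3, at 123 and 114 bases before the start and 2 bases after it. Vgll3 had a match 63 bases before its start and Lats2 one that began 4 bases after the first base of 1 of its 2 starts. Among the 12 genes with a window on the list of other YAP and TAZ targets used below, 4 held the motif. Ccn1 was 1 of these 4, with its match 103 bases before the start.

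Of the 10 genes, 3 differed between the groups at a limma adjusted p under 0.05, all of them TEAD genes: Tead1 and Tead4 fell and Tead2 rose in the libraries labelled knockout. For the same 3 genes the groups did not overlap. The background is high, since 23.2% of all tested genes were called, 11.6% as higher and 11.6% as lower, and 25.1% had groups that did not overlap, 11.7% higher and 13.4% lower. A count of 3 of 10 is thus near the share among all genes. The median log2 difference of the 10 genes was 0.13, against 0.00 over all tested genes, with 7 above 0 and 3 below. Called genes were the same 3 with edgeR and with DESeq2, which called 22.2% and 27.6% of all genes.

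**Figure D1:**
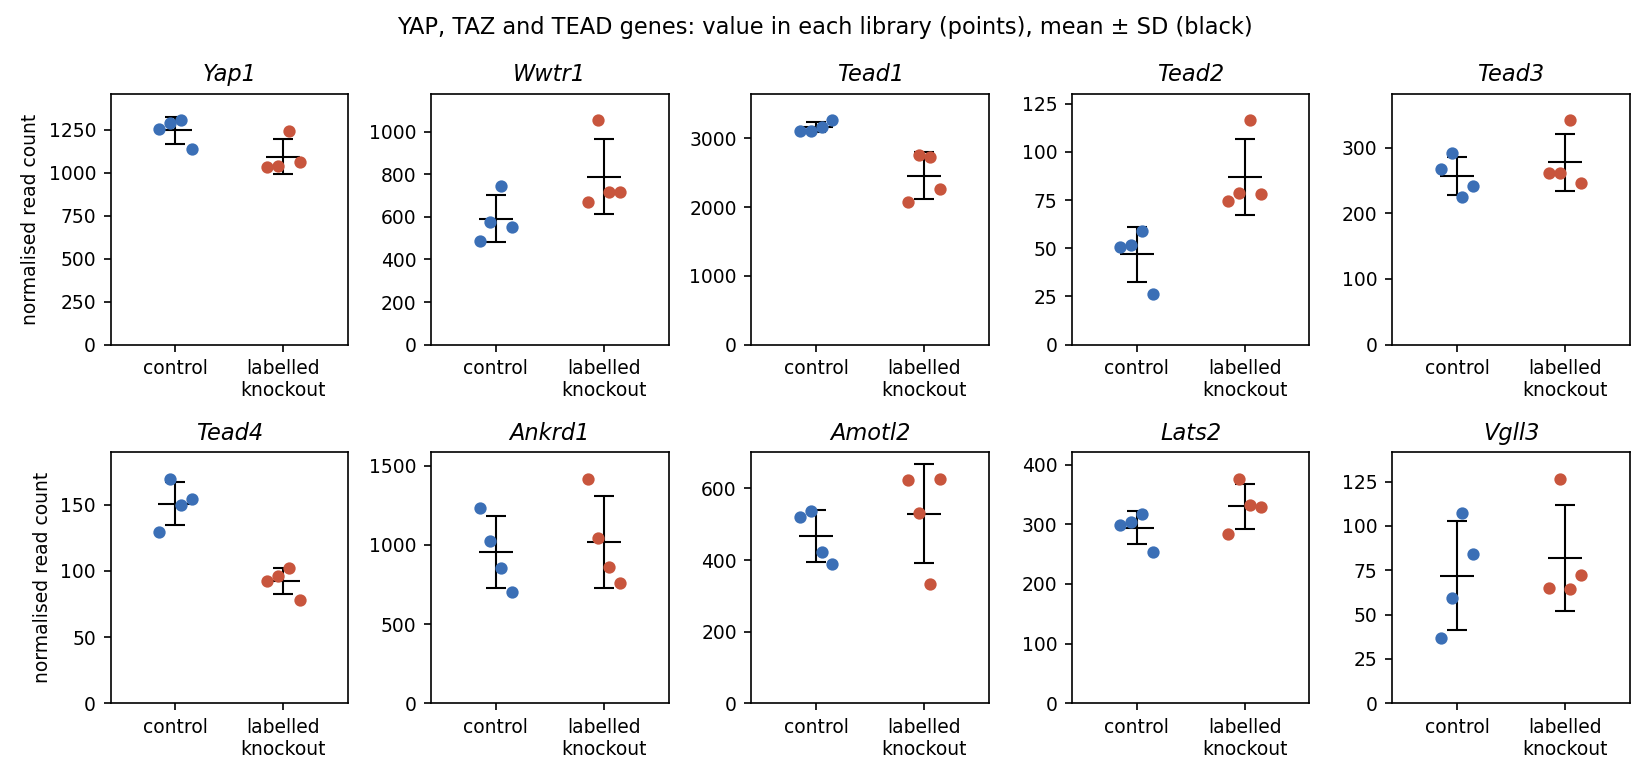
Normalised read count (vertical axes, from 0) of the 10 genes in each of the 4 control libraries (blue) and 4 libraries labelled knockout (red), with mean ± SD in black. The groups are separate for Tead1, Tead2 and Tead4 and overlap for the other 7.

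Among the co-activators, Yap1 (chromosome 9, 7931999 to 8004596, minus strand of GRCm38, the build also called mm10) was the more evenly expressed. Its normalised read count was 1254, 1291, 1305 and 1137 in the control libraries and 1034, 1039, 1245 and 1061 in the libraries labelled knockout. Of the latter, 3 lay below every control library, while knockout replicate 3 lay among the controls. The means were 1247 ± 76.2 and 1095 ± 101 (SD, n = 4 per group), a difference of -0.19 ± 0.09 (log2, SE; adjusted p = 0.145 by limma, p = 0.0571 by exact permutation), which was not called. Leaving out knockout replicate 3 gave a difference of -0.25 and a limma adjusted p of 0.0485.

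Wwtr1 (chromosome 3, 57455649 to 57575910, minus strand), the gene of TAZ, had values of 489, 576, 747 and 551 in the control libraries and 670, 1053, 717 and 717 in the libraries labelled knockout. Control replicate 3 was higher than 3 of the libraries labelled knockout, and knockout replicate 2 stood above all others. The mean went from 591 ± 110 to 789 ± 177, a difference of 0.41 ± 0.17 (log2, SE; adjusted p = 0.1005 by limma, p = 0.114 by exact permutation), which was not called. Without control replicate 3 the difference was 0.53 (limma adjusted p = 0.0418), and without knockout replicate 2 it was 0.26 (limma adjusted p = 0.218).

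The co-activators were also compared with each other inside each library. The log2 ratio of Wwtr1 to Yap1 was -1.36, -1.16, -0.80 and -1.04 in the control libraries and -0.63, 0.02, -0.80 and -0.56 in the libraries labelled knockout. All 4 of the latter lay above all controls, although knockout replicate 3, at -0.796, was next to control replicate 3, at -0.804. The mean ratio differed by 0.60 (exact permutation p = 0.0286, the smallest that this design allows, and 0.0571 after adjustment over the 2 within-library measures tested). Put per kilobase of annotated exon, to compare the levels of the 2 genes, Wwtr1 amounted to 91.7 ± 14.8% of Yap1 in the control group and 141 ± 37.7% in the other (SD, n = 4). With the longest annotated transcript as the length, a choice added after the values were seen, it was 53.2 ± 8.61% and 81.9 ± 21.9%. Which of the 2 genes is higher thus depends on the length. A change of length scales this ratio alike in every library, so it cannot alter whether the groups are separate. The sum of both co-activators per kilobase was 258 ± 28.0 and 283 ± 35.4 normalised reads, with overlapping groups. Between replicates, Wwtr1 also varied more than Yap1, with a coefficient of variation of 18.7% against 6.11% in the control group and 22.4% against 9.22% in the other.

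**Figure D2:**
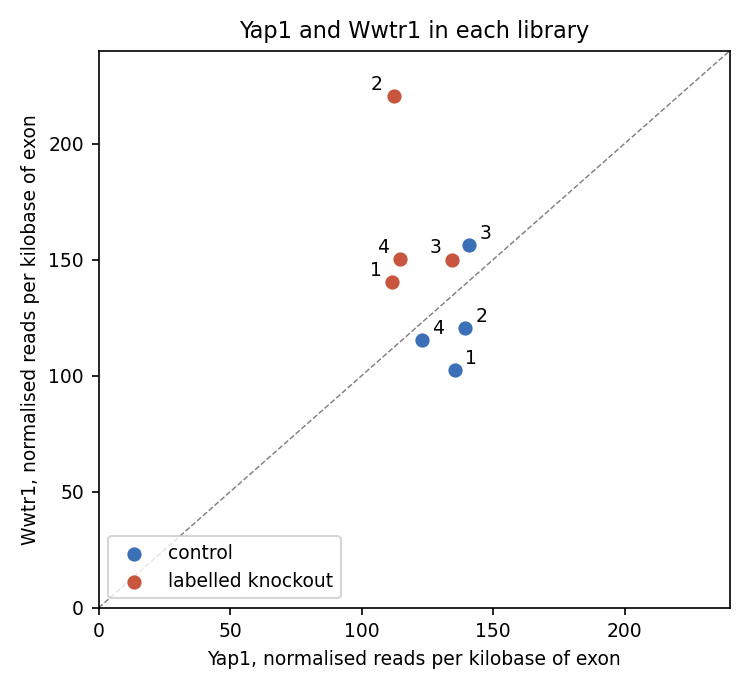
Level of Wwtr1 (vertical axis) against Yap1 (horizontal axis), both as normalised reads per kilobase of exon, in the 4 control libraries (blue) and the 4 labelled knockout (red), with replicate numbers beside the points and a dashed line of equal level. The 4 libraries labelled knockout lie above the line, and among the controls only replicate 3 does, a placing that holds for exon length and not for the longest transcript.

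Tead1 (chromosome 7, 112679318 to 112906807, plus strand) encodes a TEAD protein of many adult tissues, muscle among them, and its RNA was by far the most abundant of the 4 TEAD transcripts. Its normalised read count was 3104, 3114, 3164 and 3263 in the control libraries and 2079, 2762, 2736 and 2260 in the libraries labelled knockout. The control libraries were nearly equal, with a coefficient of variation of 2.30%, and every library labelled knockout was lower than all of them. The mean fell from 3161 ± 72.7 to 2459 ± 343, a difference of -0.37 ± 0.10 (log2, SE; adjusted p = 0.0283 by limma, p = 0.0286 by exact permutation). The call was lost under quantile normalisation (-0.17, limma adjusted p = 0.240) and with the replicate number as a block (limma adjusted p = 0.0625). It was also lost without control replicate 1 (limma adjusted p = 0.0509), 2 (0.0652) or 4 (0.0703), or without knockout replicate 1 (0.0645) or 4 (0.0790).

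Tead4 (chromosome 6, 128224288 to 128300823, minus strand), a TEAD gene with known roles in muscle differentiation and in the trophectoderm of the embryo, read 130, 170, 150 and 154 in the control libraries and 92.7, 95.8, 102 and 78.3 in the libraries labelled knockout. The lowest control lay above the highest library labelled knockout. Its mean fell from 151 ± 16.4 to 92.3 ± 10.1, a difference of -0.70 ± 0.15 (log2, SE; adjusted p = 0.0109 by limma, p = 0.0286 by exact permutation). It was called in all 17 alternative fits.

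Tead2 (chromosome 7, 45215753 to 45233644, plus strand), which is known for high expression in early embryos and progenitor cells, was the least abundant TEAD gene. It read 50.8, 51.5, 58.9 and 26.3 in the control libraries and 74.8, 78.7, 116 and 78.3 in the libraries labelled knockout, from 24 to 107 reads per library. The lowest library labelled knockout was above the highest control, and the 2 groups had their extremes in control replicate 4 and knockout replicate 3. The mean rose from 46.9 ± 14.2 to 87.0 ± 19.6, a difference of 0.92 ± 0.27 (log2, SE; adjusted p = 0.0379 by limma, p = 0.0286 by exact permutation). Leaving out any library other than control replicate 3 ended the call (limma adjusted p from 0.0535 to 0.0768), and so did quantile normalisation (0.67, limma adjusted p = 0.120). Cd37, a leukocyte gene on the opposite strand, shares 13 of the 4788 exon bases of Tead2.

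Tead3 (chromosome 17, 28331671 to 28350817, minus strand), known from placenta and many other tissues, read 268, 292, 225 and 241 in the control libraries and 261, 261, 341 and 246 in the libraries labelled knockout. Apart from knockout replicate 3, which was the highest, the groups covered the same range. The difference was 0.11 ± 0.14 (log2, SE; adjusted p = 0.591 by limma, p = 0.543 by exact permutation).

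Muscle markers differed between the groups in the direction of Tead1 and Tead4, and fibroblast and macrophage markers in that of Tead2. Tead3 was not called, and whether markers and TEAD genes vary together between libraries was not tested. All 18 skeletal muscle markers had a log2 difference below 0, with 9 called lower and a median of -0.74, beside differences of -0.37 for Tead1 and -0.70 for Tead4. All 12 fibroblast markers were above 0, with 9 called higher and a median of 1.45, beside 0.92 for Tead2. All 8 macrophage markers were called higher, with a median of 1.36. Of the 9 chondrocyte markers 8 were above 0, with 1 called higher and a median of 0.74. Only the muscle and fibroblast sums were used as scales below. Over all tested genes 11.6% were called higher and 11.6% lower. The part of these tissues in the TEAD differences was not tested. Measured against the summed muscle markers of the same library, in a calculation added after the values were seen, Tead4 differed by 0.060 and Tead1 by 0.40 on the log2 scale. On that scale both genes overlapped between the groups, while Yap1 was 0.58 higher with separate groups. The muscle sum itself was 0.77 lower on the log2 scale in the libraries labelled knockout. Any gene that fell by less than that has a positive difference on this scale. Against the summed fibroblast markers Tead2 differed by -0.74 and Wwtr1 by -1.26, with overlapping groups for both. Within the controls the fibroblast sum ran from 40655 to 121862, and both ratios spread widely (SD 0.60 and 0.83), so that overlap was easily reached.

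The make-up of the TEAD transcripts was compared inside each library, per kilobase of annotated exon. Tead1 held 72.5, 69.4, 72.7 and 74.0% of the summed TEAD level in the control libraries and 65.6, 71.3, 66.1 and 69.0% in the libraries labelled knockout. Knockout replicate 2 lay among the controls and control replicate 2 among the other group. The mean share was 72.2 ± 1.98% against 68.0 ± 2.67% (SD, n = 4), a difference of -4.17 percentage points (exact permutation p = 0.0571, and 0.0571 adjusted over the 2 within-library measures). The remaining shares are a description without a test. Tead2 went from 3.04 ± 0.93% to 6.80 ± 0.90%, Tead3 from 11.8 ± 1.27% to 15.5 ± 1.46%, and Tead4 from 13.0 ± 1.16% to 9.67 ± 0.92%, each with separate groups. The same 3 shares were separate with the longest transcript as the length, also a choice made after the values were seen. Tead3 thus had a larger share of a smaller pool, since the sum of all 4 genes was 323 ± 6.53 and 266 ± 34.5 normalised reads per kilobase, again with separate groups.

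**Figure D3:**
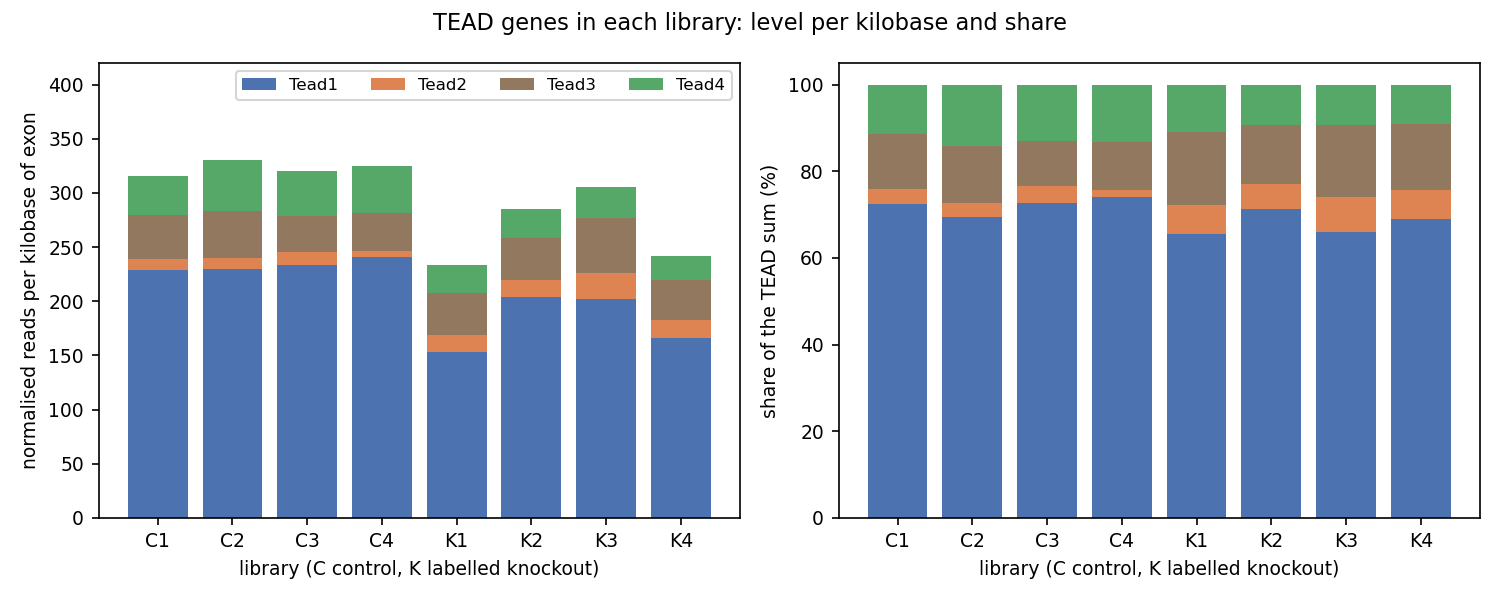
Tead1 to Tead4 as stacked bars in each of the 4 control libraries (C1 to C4) and 4 libraries labelled knockout (K1 to K4), as normalised reads per kilobase of exon (left) and as a share (%) of their sum (right). Tead1 fills 69.4 to 74.0% of the control bars and 65.6 to 71.3% of the others, and the left bars are lower in all 4 libraries labelled knockout than in any control.

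None of the 4 members outside the co-activators and TEAD genes was called. The readouts came first. Ankrd1 (chromosome 19, 36111961 to 36120099, minus strand), a muscle ankyrin repeat gene that also responds to load in striated muscle, read 1232, 1028, 855 and 701 in the control libraries and 1417, 1041, 860 and 758 in the libraries labelled knockout. The groups covered nearly the same range, and the difference was 0.085 ± 0.21 (log2, SE; adjusted p = 0.801 by limma, p = 0.686 by exact permutation). The sign turned without control replicate 4 (-0.052) and without knockout replicate 1 (-0.087). Its spread within a group, a coefficient of variation of 23.9% in the controls and 28.5% in the other group, was larger than the difference between the means of 954 and 1019.

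Amotl2 (chromosome 9, 102716672 to 102733418, plus strand), an angiomotin that binds YAP and whose gene is itself a target, read 520, 536, 422 and 388 in the control libraries and 624, 533, 332 and 627 in the libraries labelled knockout. Knockout replicates 1 and 4 were above all controls and knockout replicate 3 was below them all. The difference was 0.15 ± 0.20 (log2, SE; adjusted p = 0.625 by limma, p = 0.571 by exact permutation).

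The inhibitory kinase gene Lats2 (chromosome 14, 57689662 to 57758388, minus strand), which is also a target of YAP and TAZ, read 299.6, 305, 318 and 254 in the control libraries and 284, 376, 333 and 329 in the libraries labelled knockout. Of the latter, 3 lay above every control, but knockout replicate 1 was below 3 of the controls. The difference was 0.17 ± 0.12 (log2, SE; adjusted p = 0.329 by limma, p = 0.229 by exact permutation). Its value is uncertain for another reason: 56.5% of the 50-base words of its longest transcript also occur in the same-strand gene model Gm49361. How such reads were assigned is not given in the sources used here.

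Vgll3 (chromosome 16, 65815257 to 65866368, plus strand), whose protein binds TEAD through a vestigial-like domain, read 36.8, 59.6, 107 and 84.3 in the control libraries and 64.8, 127, 64.2 and 72.2 in the libraries labelled knockout. The groups overlapped throughout and had the widest spread among the 10 genes, with a coefficient of variation of 42.5% in the controls. The difference was 0.23 ± 0.34 (log2, SE; adjusted p = 0.659 by limma, p = 0.600 by exact permutation). The sign turned under quantile normalisation (-0.020) and without control replicate 1 (-0.052).

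Levels of different genes were compared per kilobase of exon. In the control group the order of the means was Ankrd1, Tead1, Yap1, Wwtr1, Amotl2, Lats2, Tead4, Tead3, Vgll3 and Tead2. Ankrd1 spanned 243 to 427 and Tead1 229 to 241 normalised reads per kilobase, and the lowest Ankrd1 library lay just above the highest Tead1 library. Yap1, at 123 to 141, overlapped Wwtr1, at 102 to 156, and Amotl2 followed at 61.7 to 85.2. Lats2 (36.5 to 45.6), Tead4 (36.1 to 47.1) and Tead3 (33.6 to 43.4) overlapped each other, as did Vgll3 (5.18 to 15.1) and Tead2 (5.49 to 12.3) at the low end. In the libraries labelled knockout 3 neighbouring pairs changed places in the order of the means. Wwtr1 (140 to 220) stood above Yap1 (112 to 135), Tead3 (36.7 to 50.9) above Tead4 (21.8 to 28.4), and Tead2 (15.6 to 24.3) above Vgll3 (9.03 to 17.8). These swaps depend on the length used: with the longest annotated transcript in place of all exons, the 10 genes stood in 1 order in both groups, with Yap1 above Wwtr1, Tead3 above Tead4 and Tead2 above Vgll3.

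The core kinase cascade was described over 12 genes, of which 3 were called higher and 1 lower, 33.3% against 23.2% of all tested genes, with a median log2 difference of 0.036 against 0.00. Stk3, the gene of the kinase MST2 at the head of the cascade, rose from 76.2 ± 19.2 to 142 ± 10.4 (log2 difference 0.93, SE 0.19, limma adjusted p = 0.0107). Mob1a, whose product is a co-factor of the LATS kinases, rose from a mean of 540 to 812 (0.59, limma adjusted p = 0.0148). Map4k4, a kinase that can phosphorylate LATS alongside MST, rose from 547 to 1010 (0.93, limma adjusted p = 0.0150). These 3 genes were called in all 17 alternative fits. Stk4 and Mob1b, the close relatives of Stk3 and Mob1a, were named after their values were seen and were not called. Stk4 had means of 298 and 262 (-0.17, limma adjusted p = 0.340), and Mob1b 595 and 607 (0.04, limma adjusted p = 0.838). Nf2, the gene of the membrane scaffold Merlin, which recruits LATS, fell from 1942 to 1481 (-0.39, limma adjusted p = 0.0154). This call was lost under quantile normalisation (-0.22, limma adjusted p = 0.0918) and with the replicate number as a block (limma adjusted p = 0.0574). Against the summed muscle markers, a scale chosen after the values were seen, Nf2 stood 0.38 higher on the log2 scale, with separate groups. That sum itself was 0.77 lower in the libraries labelled knockout.

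Of 13 genes of scaffolds and junctions, 12 were tested, Wwc1 being below the filter. Among these 5 were called higher and 3 lower, 8 of 12 or 66.7% against 23.2% of all tested genes, and 7 had groups that did not overlap, where 25.1% of all genes did so. The median log2 difference was 0.25. Of the 3 angiomotins, which hold YAP at junctions and on actin, Amotl1 and Amot fell. Amotl1 read 9193, 8154, 7700 and 9058 in the control libraries and 4935, 5141, 4670 and 4361 in the libraries labelled knockout, so that every library of the second group was far below every control. Its log2 difference was -0.83 ± 0.094 (SE, limma adjusted p = 0.00397). Amot, named after its values were seen, read 1334, 2137, 1607 and 1478 against 1153, 768, 1098 and 812 (-0.77, limma adjusted p = 0.0145). The third angiomotin is Amotl2, given above, which was not called.

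The giant cadherins of the planar polarity branch rose. Fat4 read 124, 138, 212 and 110 in the control libraries and 682, 410, 341 and 416 in the libraries labelled knockout, with no overlap. The log2 difference of Fat4 was 1.65 ± 0.25 (SE, limma adjusted p = 0.00456). Dchs1, which encodes the ligand that Fat4 binds, rose from a mean of 190 to 364 (0.99, limma adjusted p = 0.0118). Dlg5, the gene of a polarity scaffold that binds MST kinases, rose from 180 to 264 (0.55, limma adjusted p = 0.0133). The other called genes were Wtip (0.72) and Limd1 (-0.33), which encode LIM proteins that bind LATS, and the FERM protein gene Frmd6 (0.58), all 3 named after their values were seen (limma adjusted p = 0.0239, 0.0272 and 0.0454). Of the 17 alternative fits, Wtip was called in 14, Limd1 in 10 and Frmd6 in 9. Single libraries whose removal ended the calls were control replicate 2 and knockout replicates 2 and 4 for Wtip, control replicates 1 and 3 and knockout replicates 1, 2 and 4 for Limd1, and every library but control replicate 3 and knockout replicate 3 for Frmd6. Against the summed muscle markers Amotl1 differed by -0.065 and Amot by -0.0054 on the log2 scale, and against the summed fibroblast markers Fat4 differed by -0.015 and Dchs1 by -0.68. All 4 overlapped between the groups on these scales, which were chosen after the values were seen. Within the controls the fibroblast sum ran from 40655 to 121862, and the ratio of Fat4 to it had an SD of 0.69. Overlap is easily reached at that spread. The part of fibroblasts, or of other cells with higher markers, in the cadherin differences was not tested.

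**Figure D4:**
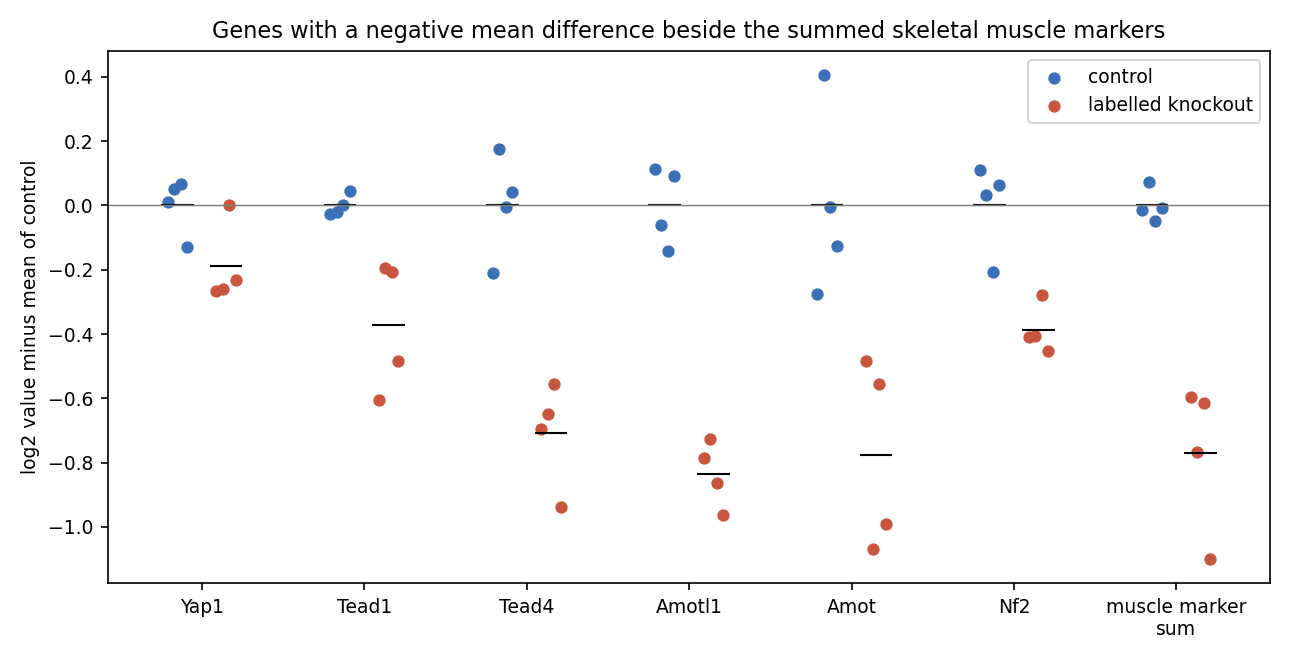
Log2 value in each library minus the mean of the control group (vertical axis) for Yap1, Tead1, Tead4, Amotl1, Amot and Nf2, which had a negative mean difference, and for the sum of the 18 skeletal muscle markers; short lines are group means. The groups are separate in every column except Yap1, and the mean of the marker sum is 0.77 lower in the libraries labelled knockout (red) than in the controls (blue).

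The STRIPAK complex, a phosphatase assembly that removes the activating phosphate from MST kinases, had 1 of its 13 genes called, 7.69% against 23.2% of all tested genes. This was Ppp2r1a, the structural subunit of protein phosphatase 2A, which fell from a mean of 2128 to 1718 (-0.31, limma adjusted p = 0.0167). Quantile normalisation ended this call (limma adjusted p = 0.162), and so did the replicate number as a block (0.0586) and leaving out control replicate 2 (0.0534). The median of the list was -0.08, with 11 of 13 genes below 0.

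Of 19 further YAP and TAZ target genes, 4 were called higher and 1 lower, 26.3% against 23.2% of all genes. The median log2 difference was 0.50, with 15 of 19 above 0. Groups did not overlap for 3 of the 19, where 25.1% of all tested genes did so. Myof, a membrane repair gene of the ferlin family, rose from a mean of 354 to 749 (1.09, limma adjusted p = 0.0184). F3, the gene of tissue factor, which starts coagulation, rose from 34.1 to 85.5 (1.43, limma adjusted p = 0.0214). Asap1, an Arf GTPase regulator of adhesion sites, rose from 401 to 536 (0.42, limma adjusted p = 0.0241). Arhgef17 fell from 1581 to 1219 (-0.37, limma adjusted p = 0.0297). The fifth called gene, Rbms3, was outside the naming rule and had a difference of 0.93. Every one of these 5 calls was lost on leaving out single libraries. Without knockout replicate 4 limma called none of the 19, with 7 at an unadjusted p under 0.05, and without control replicate 2 it called 1. In the reported limma fit 10 of the 19 had an unadjusted p under 0.05, as did 5741 of all 14949 tested genes.

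The 2 targets most often used as readouts were not called. Ccn1, which the table lists as Cyr61, had means of 822 and 1153 (0.50, limma adjusted p = 0.0814), and passed the threshold without control replicate 1 (0.0318) or knockout replicate 3 (0.0384). Ccn2, listed as Ctgf, had means of 2373 and 3620 (0.56, limma adjusted p = 0.142). Both encode secreted matrix proteins of the CCN family that fibroblasts express strongly, and the part of the fibroblast values above in this list was not tested.

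Among the relatives of Vgll3, Vgll2, a cofactor of skeletal muscle, had means of 1580 and 1243 (-0.34, limma adjusted p = 0.1005) and Vgll4, a repressor of TEAD, 376 and 393 (0.07, limma adjusted p = 0.815). Neither was called by limma, and 1 of the 2 had an unadjusted p under 0.05, as did 5741 of all 14949 tested genes. Vgll1 was not among the 20681 genes with values. Among the relatives of Ankrd1, Ankrd23 fell from 2487 to 1893 (-0.39, limma adjusted p = 0.0200). This call was lost under quantile normalisation (limma adjusted p = 0.133) and with the replicate number as a block. It was also lost without control replicate 2 (0.0581), knockout replicate 1 (0.0528) or knockout replicate 4 (0.0586). Ankrd2, a gene of slow muscle fibres, had means of 2037 and 1085 (-0.94, limma adjusted p = 0.103).

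**Figure D5:**
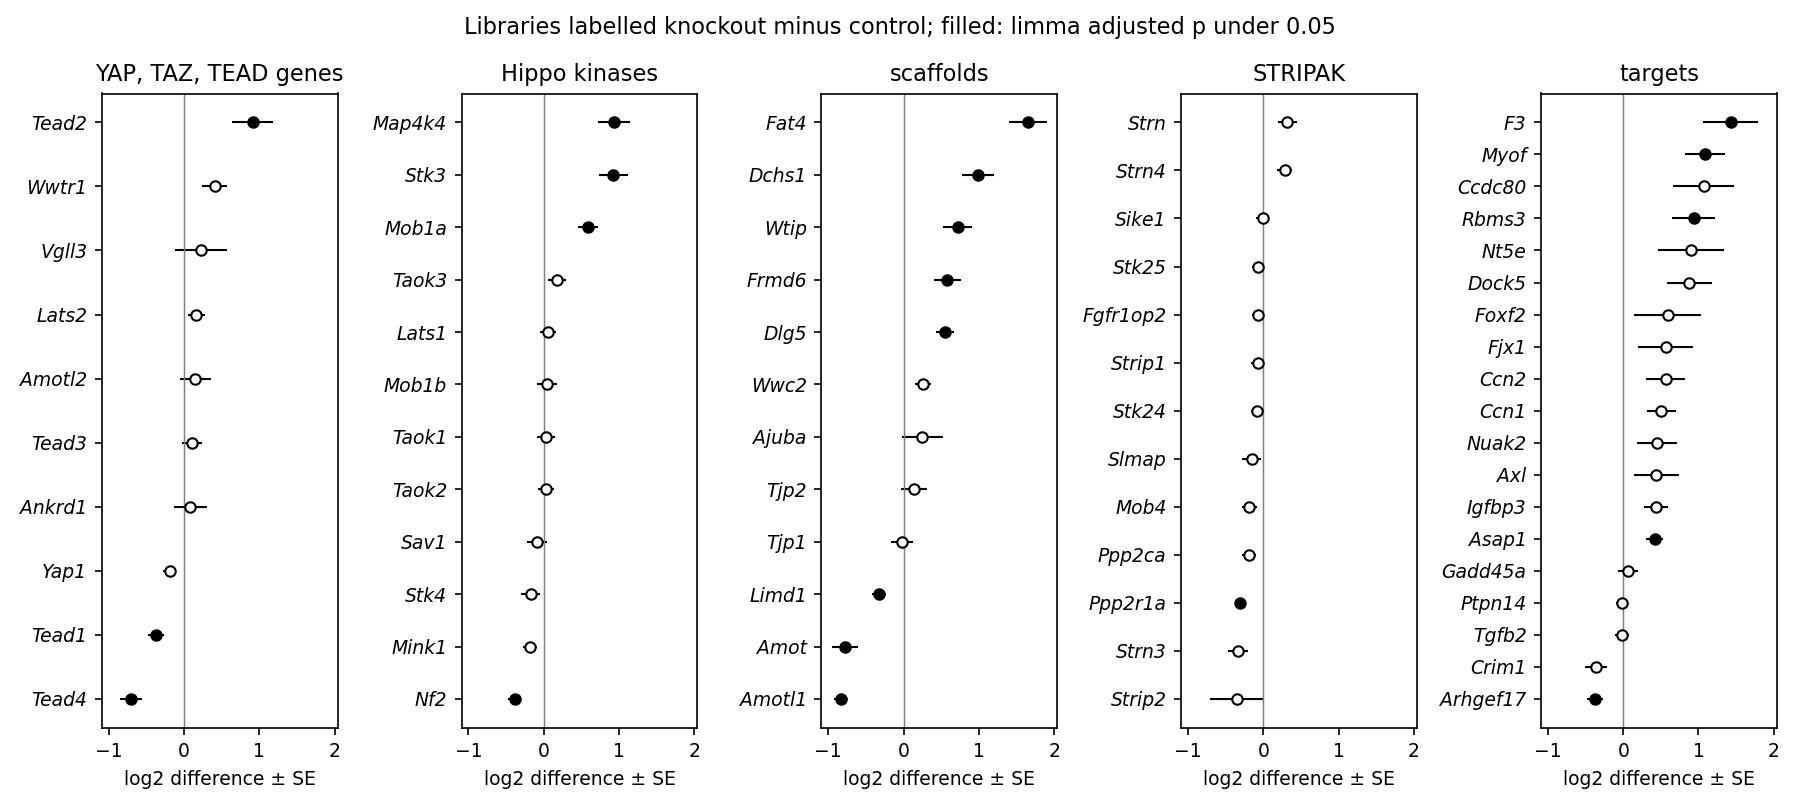
Log2 difference, libraries labelled knockout minus control, ± 1 SE from limma (horizontal axes) for the 10 genes and the tested genes of the kinase, scaffold, STRIPAK and target lists, 1 panel per list; filled points have a limma adjusted p under 0.05. Filled points number 3 of 10, 4 of 12, 8 of 12, 1 of 13 and 5 of 19 from the left panel to the right, and in the last panel 15 of 19 points lie above 0.

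Over the 8 libraries, the genes with the profile closest to Yap1 were Tmem131, Map2k5 and Gcn1l1, at a root mean square log2 distance of 0.0399, 0.0411 and 0.0452 after centring. For Tead1 they were Eif2b2 (0.0399), 2810004N23Rik (0.0599) and Timm22 (0.0600). The nearest profiles to Wwtr1 were farther away, Nrep (0.101), S100a16 (0.108) and Rbm12 (0.108), and those to Ankrd1 farther still, Rasl11a (0.125), Gucy2g (0.151) and Irgm1 (0.166). The distances share the same 8 libraries and are smaller for genes that vary less.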

How the data were processed

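Poly-A RNA was sequenced from 8 mouse knee joint libraries, grouped by title as 4 control and 4 knockout. The values are normalised read counts (a signal unit) that the authors deposited, per the file header; the submitters' processing notes name HISAT2, featureCounts and mm10, and the series' design text names DESeq2. Versions, annotation and strand setting are not given in the sources used here. Dividing each column by its smallest step gave whole reads for every value within 0.01, 13991000 to 17411617 per library.

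Log2(value + 1) was fitted with limma 3.58.1 (trend) for genes with at least 10 in at least 4 libraries, 14949 of 20681. P-values were Benjamini-Hochberg adjusted over all of them, and a gene was called under 0.05. Fold changes are on this log2 scale and understate the change of low genes. Single genes and within-library measures also had a two-sided exact permutation test over 70 assignments, with a smallest p of 0.0286. Levels were divided by exon length from GENCODE M21. Alternatives were pseudocounts of 0.1 and 10, no filter, a filter of 50, TMM, quantile normalisation, a replicate block, edgeR 4.0.16 and DESeq2 1.42.0 on the recovered reads, and leaving out each library. The fit was tested on simulated data. The 10 genes and all lists were chosen with earlier results of these data known. Named are the 10 genes, up to 4 called genes of smallest p per pathway list, the Vgll and muscle ankyrin relatives, Loxl2, and the 3 profiles nearest to Yap1, Wwtr1, Tead1 and Ankrd1; Ccn1, Ccn2 and the genes marked in the text were added after their values were seen.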

Additional observations from a re-analysis of the deposited data

Results flagged for a closer look

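In 5 of the 20 combinations of a gene and a group, 1 library stood apart from the other 3 by Dixon's test at the 95% level. For a single combination chance does this in about 1 of 20. The 20 combinations share the same 8 libraries and are not independent, so their count was not tested against that rate. All 5 flagged combinations were in the group labelled knockout and none was in the control group. Knockout replicate 3 was the high library for Yap1, at 1245 with the next at 1061, for Tead2, at 116 with the next at 78.7, and for Tead3, at 341 with the next at 261. Knockout replicate 2 was the high library for Wwtr1, at 1053 with the next at 717, and for Vgll3, at 127 with the next at 72.2.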

How the results depend on the processing

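Of the 10 genes, 3 were called in the reported fit, 1 under quantile normalisation, and 1 to 4 when single libraries were left out. Without single libraries the difference of Ankrd1 ran from -0.087 to 0.22, that of Vgll3 from -0.052 to 0.46 and that of Vgll4 from -0.064 to 0.20, so their signs turned, and that of Vgll3 was -0.020 under quantile normalisation. Leaving out single libraries gave 4 of 12 kinase genes, 5 to 8 of 12 scaffold genes, 0 to 2 of 13 STRIPAK genes and 0 to 7 of 19 target genes. It moved the log2 Wwtr1 to Yap1 difference between 0.43 and 0.70 and the Tead1 share difference between -5.28 and -3.38 points. STRIPAK calls numbered 2 under the stricter filter and with DESeq2, and 0 under quantile normalisation, where limma gave 1 gene an unadjusted p under 0.05. Target calls numbered 3 under quantile normalisation. Over all genes, 1751 to 3841 were called without single libraries.

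Replicate numbers are not stated to pair the libraries. The deviations of same-numbered libraries correlated at 0.21, -0.12, -0.23 and -0.06, which cannot show whether the libraries were paired. With the number as a replicate block, 2 of the 10 genes were called (Tead2 and Tead4), 0 STRIPAK genes (2 at an unadjusted p under 0.05), 4 target genes and 2018 genes in all. The paired exact test, which cannot go below 0.125, gave p = 0.125 for the Wwtr1 to Yap1 ratio (0.60) and 0.25 for the Tead1 share. At 24 to 107 reads per library, Tead2 is the member whose precision is most limited by depth.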
